A study of Delphinium anthriscifolium with 89 samples.

Results

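A set of 200 features, of 32115 in the files, was examined because their RNA levels fell between the floral stages labelled S10 and S16 in every floral organ type sampled from *Delphinium anthriscifolium*, a larkspur whose flower has a spurred dorsal side. Levels were in CPM, a feature's share of the counts of its library on the usual CPM scale, and a group's value was the median CPM of its replicates plus 1. A feature was kept when its S10 value was at least 11 and at least 2 times its S16 value in each of 7 floral organ types. Its highest organ value also had to lie under 3 times the sixth highest of 9 organs, the 7 floral types, leaves and bracts. This keeps out features concentrated in a few organs. Of 9211 features with an S10 value of 11 or more in every floral organ, 468 fell in all 7, 377 of these were also broad, and the 200 with the largest minimum ratio of S10 to S16 were taken. The members were thus chosen by their S10 and S16 levels, which are described without a test. IDs are given without the part after the bar, and each ID printed is that of a single feature.

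The 85 wild-type libraries came from dorsal spurred sepals, lateral and ventral sepals without spurs, dorsal spurred petals, lateral petals without spurs, stamens and carpels, each at stages S9, S10, S12 and S16, and from leaves and bracts. Each floral group had 2 libraries at S9 and 3 at S10, S12 and S16, and leaves and bracts had 4 each, taken from just below S9 buds. A further 4 libraries came from plants treated by virus-induced gene silencing, in which a viral vector carries a piece of the gene to be silenced: 2 labelled ans-lmi1 and 2 labelled ans, whose count columns are named MOCK. Their tissue labels say lateral sepals without spurs while the design text says S12 petals, and the genotype label of ans-lmi1 replicate 2 names LMI2 where that of replicate 1 names LMI1. The files carry IDs without gene names, so the silenced genes could not be checked, organ labels could not be checked against markers, and no role is given to any feature.

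Floral organs begin as small groups of dividing cells. Growth then passes from division to expansion, and in later buds to the making of pigment, nectar, pollen or ovules, each organ on its own schedule. In plants generally, RNAs for chromosome replication, chromatin proteins, the mitotic machinery and protein synthesis are abundant in young dividing organs and scarce in mature ones, and carpels keep dividing tissue in their ovules after petals and sepals have stopped. Whether the 200 features belong to these classes is not known here, since their IDs were not paired with names.

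The libraries held between 4201867 and 22100119 counts, with a median of 8555603. Between 9879 and 23305 features were detected in a library, and 21 libraries had fewer than 19000. These include all 6 S9 sepal libraries, both S9 stamen libraries and replicate 3 of all 7 S16 groups. Nothing in the labels says that replicates were separate plants, so the spread behind every p-value is that of the libraries and may be technical. In bulk tissue, fewer cells of a type and less RNA per cell cannot be told apart.

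The 200 features together made up a sizeable part of the RNA of young organs and little of that of late ones. In dorsal petals they took 7.89% and 9.23% of all counts in the S9 libraries, between 5.50% and 6.11% at S10, between 1.01% and 1.91% at S12 and between 0.178% and 0.358% at S16. In carpels they took 8.42% and 8.84% at S9, between 8.15% and 10.2% at S10, between 3.82% and 5.15% at S12 and between 2.19% and 3.43% at S16. Carpels thus ended above every other organ: the 18 S16 libraries of the other 6 organs held between 0.144% and 0.452%. In stamens the share was already low at S10, between 1.42% and 2.56%. Replicate 3 had the highest member share of its group in all 7 S16 groups, and it was also the library with the fewest features detected in each. Without replicate 3 at S16, the members' median log2 difference of S16 minus S10 lay between -4.85 in lateral petals and -1.89 in carpels. With it these were -4.75 and -1.88. All 200 members still met the rule without it. Its part in the S16 shares was not tested.

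**Figure D1:**
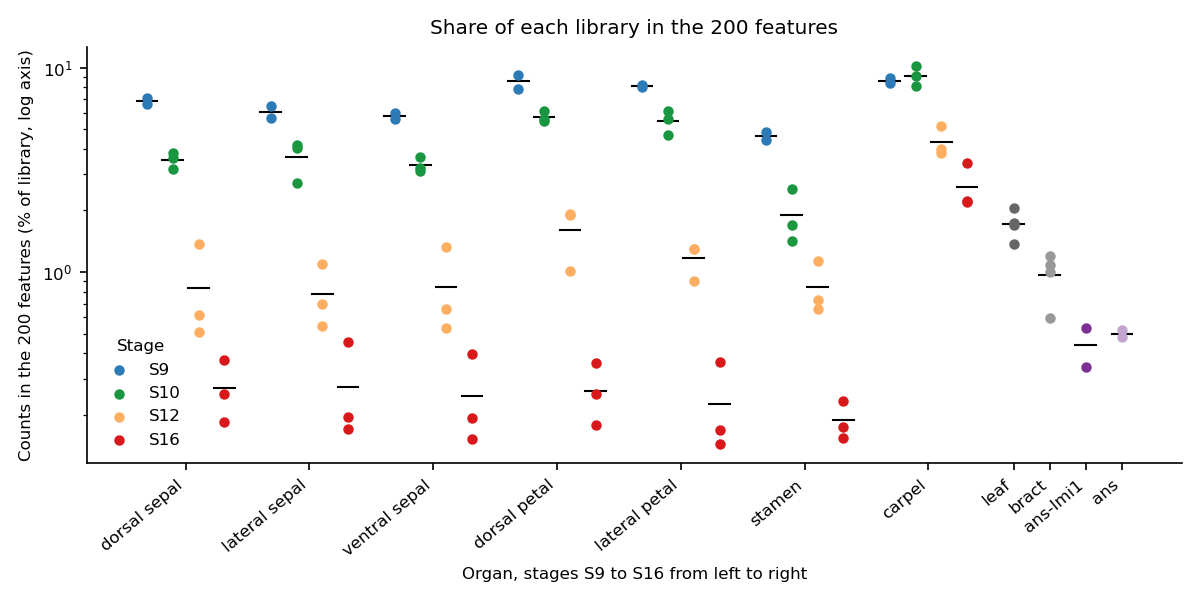
Percentage of each library's counts in the 200 features (log axis), by organ and stage, with leaves, bracts and the silencing libraries on the right. Each point is 1 library and each bar the mean of a group. In carpels the S16 libraries lie between 2.19% and 3.43%, while in the other 6 floral organs they lie between 0.144% and 0.452%.

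The size of the fall differed between organs. The median ratio of S10 to S16 over the 200 features was 13.4 in dorsal sepals, 17.9 in lateral sepals, 20.2 in ventral sepals, 18.1 in dorsal petals, 26.8 in lateral petals, 8.29 in stamens and 3.68 in carpels. Carpels gave the smallest ratio for 152 members and lateral petals the largest for 78. On the log2 scale the members' median difference of S16 minus S10 lay between -4.75 in lateral petals and -1.88 in carpels, where the other 9011 features at 11 or more at S10 had medians between -0.53 and 0.08. With TMM factors, which scale libraries to a common bulk of features, these other features had medians between -0.04 and 0.10, and the members between -4.38 and -1.83.

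Among the members the smallest of the 7 ratios lay between 2.58 and 40.6, with a median of 3.34, was 4 or more for 58 and 10 or more for 4. DN48620_c1_g2_i4 and DN47678_c2_g3_i5 were the last taken, at 2.59 and 2.58. DN44359_c0_g1_i4 and DN45797_c0_g1_i1 were the first left out, at 2.57 and 2.56, so the end of the list is set by its limit and not by a gap.

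DN42584_c1_g1_i6 had the largest minimum ratio, 40.6, reached in carpels. In lateral petals it stood at 883 and 1137 CPM at S9, at 971, 970 and 899 CPM at S10, at 12.7, 48.0 and 46.1 CPM at S12 and at 0.378, 0.523 and 0 CPM at S16. In carpels it stood at 784 and 1060 CPM at S9, at 1109, 849 and 1242 CPM at S10, at 102, 206 and 291 CPM at S12 and at 26.4, 26.0 and 53.9 CPM at S16. No S12 library overlapped an S10 library in either organ, and the carpel S16 libraries stayed at a level that lateral petals had already reached at S12. A count of 3 corresponds to between 0.136 and 0.714 CPM depending on the library, counting error only, so the S16 petal values are at about that limit.

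DN45018_c0_g3_i1 was second, with a minimum ratio of 12.3, also in carpels. All 9 of its sepal libraries at S16 were listed at 0, against S10 group medians of 68.0 CPM in dorsal sepals, 109.6 CPM in lateral sepals and 64.2 CPM in ventral sepals. Its carpel libraries at S16 held 19.6, 25.7 and 19.3 CPM.

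The most abundant member at S10 was DN46946_c3_g1_i1, with a median over the 7 organs of 1901 CPM and a range of group medians from 521 CPM in stamens to 4233 CPM in carpels. At S16 its group medians lay between 28.1 CPM in lateral sepals and 1024 CPM in carpels, so it remained a well-expressed RNA where the fall was shallow. DN39775_c0_g1_i1 came next, with a median S10 level of 1559 CPM. Its stamen level was low from the start, 188 CPM at S9, 187 CPM at S10 and 154 CPM at S12, while its dorsal petals fell from S9 onwards through 2747 CPM, 1631 CPM and 428 CPM to 0.952 CPM at S16. Both are compared here with themselves across organs only, since CPM does not correct for feature length.

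Several members shared an assembly origin. The 200 features came from 182 assembly genes as the IDs name them, and 10 of these held more than 1 member, 28 members in all. An assembly gene with several features was the source of 35.0% of the members, against 29.3% of all features and 20.1% of the features at 11 or more at S10. At the wider level of the assembly cluster, the first part of the ID, all 8 features of DN46946 and 5 of the 7 features of DN48620 were members. Near-identical features can share reads, which an estimation such as that of RSEM divides between them, so such members are neither separate measurements nor certain one by one.

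The course over all 4 stages was as follows, and the choice by S10 and S16 levels fixes part of it. Over the 28 floral groups, the log2 profile of a member correlated with the median profile of the set at a median of 0.952 (range 0.486 to 0.991), with 159 members at 0.9 or more and 3 under 0.7; the S10 and S16 groups among them were used in the choice, so this is a description only. The stage of the highest floral group value was S9 for 124 members, S10 for 71, S12 for 5 and, as the choice requires, S16 for 0. In 126 members the S9 level was at or above the S10 level in 6 or 7 organs, and 130 kept the order S9, S10, S12, S16 from high to low in 5 or more organs. Carpels again stood apart, with S9 at or above S10 in 71 members, against 144 to 189 in the other 6 organs. Over the other 9011 features, carpels had S9 at or above S10 in 62.4%, the highest share of the 7 organs.

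**Figure D2:**
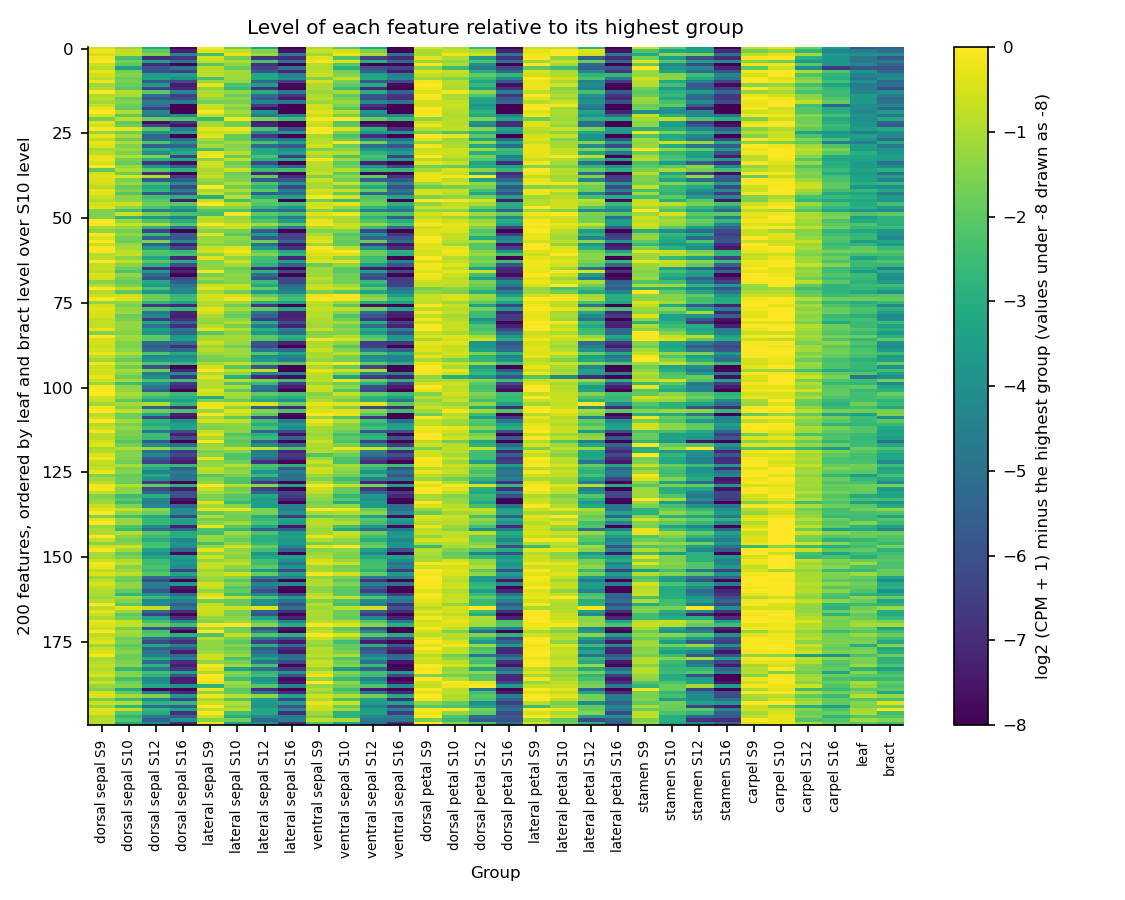
Level of each of the 200 features (rows, ordered by leaf and bract level over S10 level) in the 30 wild-type groups (columns), as log2 of the group value minus its highest group value, with values under -8 drawn at -8. Within each organ levels drop from S9 or S10 to S16, least in carpels. Leaves and bracts lie between the early and the late floral stages of sepals and petals for most rows.

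How early the fall came varied by organ. By S12 the median member had passed 60.8% of its log2 fall from S10 to S16 in dorsal sepals, 56.7% in both lateral and ventral sepals, 53.1% in carpels, 41.5% in stamens, 40.7% in lateral petals and 31.2% in dorsal petals. Dorsal petals lost the least before S12 outside stamens and carpels: the median log2 difference of S12 minus S10 was -1.26 there, -1.81 in lateral petals and between -1.93 and -1.88 in the 3 sepal types. DN45465_c0_g2_i5 fell earliest. Its lateral petals held 51.3 and 51.7 CPM at S9, 54.9, 31.6 and 15.6 CPM at S10, 0.481, 0.607 and 1.30 CPM at S12 and 1.23, 2.01 and 4.02 CPM at S16, so the fall was complete by S12. DN45709_c0_g2_i11 was also early by its medians, but its replicates did not agree: in dorsal sepals it held 3.16, 2.27 and 74.2 CPM at S12 and 4.50, 1.55 and 26.6 CPM at S16, with the high value in replicate 3 both times.

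The latest falls were those of DN48210_c2_g4_i1 and DN44747_c1_g1_i8. The first held 51.4, 54.7 and 55.8 CPM in dorsal petals at S10, 79.0, 76.0 and 85.1 CPM at S12 and 2.17, 2.13 and 4.57 CPM at S16, and its S12 libraries lay above every S10 library. The second had an organ-wide median of 58.2 CPM at S10, 57.5 CPM at S12 and 8.56 CPM at S16. In these organ-wide medians and in dorsal petals, the drop thus came after S12.

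The comparison of S12 with S9 asks whether the members also declined between stages that were not used for the fall condition; S9 and S12 entered the choice only through an organ's highest value. Each organ family was fitted with edgeR on all its stages, and members count as called where the p adjusted by the Benjamini-Hochberg method over all features tested was under 0.05. Averaged over the 7 organs, 174 of the 200 members were lower at S12 and 1 was higher; of all 23389 features tested, 12.6% were called lower and 29.5% higher. The members' median log2 change was -1.98, against 0.38 over all features tested. Of the 25 members not called, 20 had a lower fitted value. The log2 changes ran from -5.56 to 0.65.

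All 6 organs other than carpels showed many such falls. In dorsal sepals 108 members were lower (2.74% of all features tested), in lateral sepals 103 (2.87%), in ventral sepals 91 (2.2%), in dorsal petals 124 (6.51%), in lateral petals 146 (8.09%) and in stamens 63 (4.05%). The members' median log2 change lay between -2.36 in lateral petals and -1.91 in dorsal petals, where the medians over all features tested lay between 0.06 and 0.57. In carpels 7 members were lower (0.212% of all features tested), the members' median was -0.89, and 192 of 200 had a lower fitted value. In the other direction, 1 member was higher in dorsal petals (7.06% of all features tested), 1 in stamens (3.51%), and 0 in dorsal sepals (5.32%), lateral sepals (7.33%), ventral sepals (2.34%), lateral petals (8.16%) and carpels (0.383%). By member, 159 were lower in 1 or more organs, 98 in 4 or more, 50 in all 6 organs other than carpels, and 41 in none. A lower fitted value in all 7 was found for 165. The same counts over all features tested were not made, so these describe the members only.

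**Figure D3:**
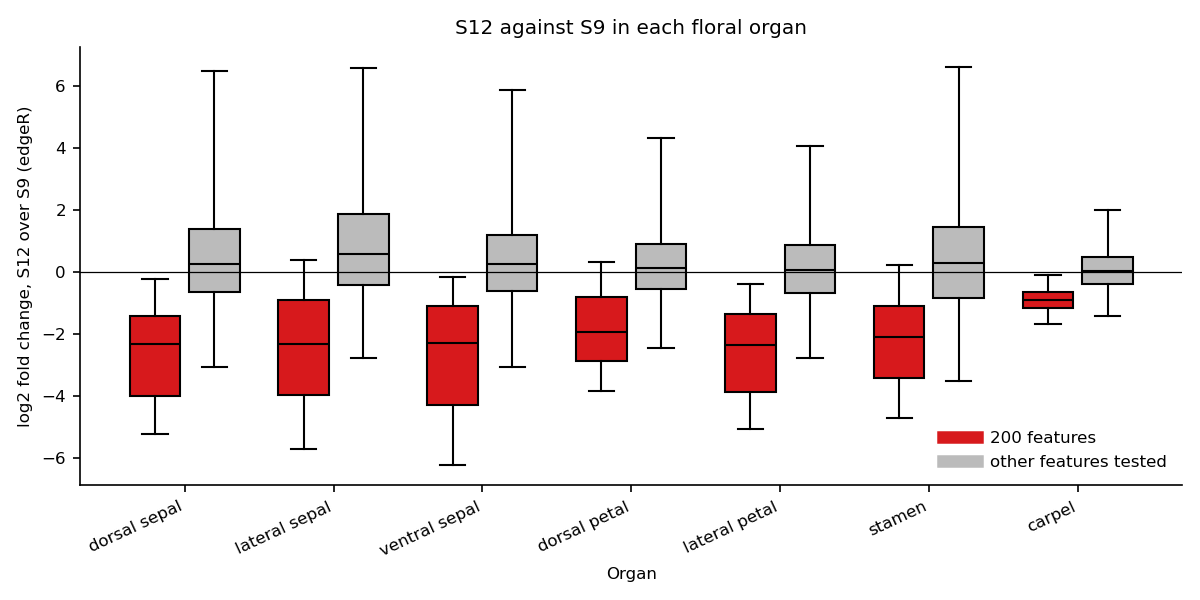
Log2 fold change of S12 over S9 in each floral organ for the 200 features (red) and for the other features tested (grey), from edgeR. Boxes span the quartiles with the median as a line, and whiskers run to the 5th and 95th percentiles. The medians of the 200 lie between -2.36 and -1.91 in 6 organs and at -0.89 in carpels.

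The S9 libraries also differed from the S12 libraries in depth and in features detected. They held between 4201867 and 7205221 counts, against 6358808 to 19177924 at S12. At S9, 9 of 14 libraries had fewer than 19000 features detected, and at S12 1 of 21. The part of these low libraries in the counts of members was not tested in sepals and stamens, where every S9 library was among the 9. In lateral petals and carpels no S9 or S12 library was among them. Leaving out all libraries under 19000 features, in the petal fit also dorsal petal S9 replicate 2, gave 177 and 95 members lower. The shares of all features called under this and the following changes of libraries are not given. The counts thus do not show whether members moved more than other features. The carpel count was 0 without S9 replicate 1 or 2 or S12 replicate 1 or 2, and 5 without S12 replicate 3. In stamens, leaving out S9 replicate 1 gave 31, S12 replicate 1 gave 26 and S12 replicate 2 gave 29. In lateral sepals, leaving out S9 replicate 2 gave 103 lower and 29 higher; replicate 1, which then stood alone, had 9879 features detected.

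The largest mean fall was that of DN47821_c0_g3_i1, which was -5.56 ± 0.39 on the log2 scale (SE, adjusted p by edgeR 4.958e-18). In ventral sepals it held 0, 0.562 and 0.841 CPM at S12 and 108 and 85.1 CPM at S9. In dorsal petals it held 0.365, 10.3 and 11.9 CPM at S12 and 114 and 90.2 CPM at S9, and in carpels 12.5, 16.4 and 59.7 CPM at S12 and 128 and 107 CPM at S9. The S12 libraries of dorsal petals and carpels were spread widely, but none reached an S9 library of the same organ.

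DN43699_c0_g1_i1 fell by 5.34 ± 0.37 on the log2 scale (SE, edgeR adjusted p = 4.61e-17). It held 2.55, 16.4 and 23.7 CPM in lateral sepals at S12 and 2320 and 1252 CPM at S9. In stamens it held 22.1, 52.8 and 25.4 CPM at S12 and 2638 and 1030 CPM at S9. Its carpels still held 294, 358 and 483 CPM at S12, against 963 and 1045 CPM at S9, and 333, 284 and 808 CPM at S16, where its petals held 8.53 CPM or less in every library.

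The largest called falls in single organs were shared among few members. DN47821_c0_g3_i1 was first or second in all 3 sepal types and in lateral petals, with log2 changes of -7.51 in dorsal sepals, -6.92 in lateral sepals, -7.67 in ventral sepals and -6.05 in lateral petals. DN45018_c0_g3_i1 fell by 8.97 on the log2 scale in ventral sepals (edgeR adjusted p = 6.958e-05), where it held 0, 0.794 and 0 CPM at S12 and 169 and 129 CPM at S9. It fell by 1.97 in carpels (edgeR adjusted p = 0.04969), where it held 66.4, 34.8 and 85.8 CPM at S12 and 274 and 204 CPM at S9. DN48787_c0_g1_i1 fell by 6.48 in lateral petals (edgeR adjusted p = 2.84e-05), with 0, 1.04 and 1.10 CPM at S12 and 57.9 and 68.1 CPM at S9. DN42429_c0_g1_i2 fell by 5.99 in stamens (edgeR adjusted p = 0.006303), with 0.799, 0.959 and 0.892 CPM at S12 and 76.0 and 27.7 CPM at S9. In none of these 4 cases did the S12 and S9 libraries overlap. DN47590_c0_g1_i1 was the second largest fall in dorsal petals, by 5.33 (edgeR adjusted p = 3.761e-07), with 29.7, 74.6 and 59.6 CPM at S12 and 1288 and 2807 CPM at S9. In carpels, DN45465_c0_g2_i5 had the largest fall among the 7 called members, by 2.14 (edgeR adjusted p = 0.04969), with 24.2, 25.5 and 38.1 CPM at S12 and 120 and 130 CPM at S9; this call and the carpel call of DN45018_c0_g3_i1 were each lost in 6 of 12 alternative settings.

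A pair of members went the other way. DN46519_c1_g3_i1 was higher at S12 in the mean over organs (by 0.65 ± 0.24 on the log2 scale, SE, adjusted p by edgeR 0.02381) and in stamens, where it held 206, 228 and 264 CPM at S12 and 37.0 and 21.8 CPM at S9 (by 2.86 ± 0.65 on the log2 scale, SE, adjusted p by edgeR 0.02212). Its stamens then held 7.54, 13.5 and 2.73 CPM at S16, so its level peaked at S12 before the drop. DN47646_c2_g2_i6 was higher in dorsal petals, with 152, 206 and 320 CPM at S12 and 57.9 and 78.1 CPM at S9 (by 1.64 ± 0.52 on the log2 scale, SE, adjusted p by edgeR 0.04065). Its call was lost in 7 of 12 alternative settings, and those of DN46519_c1_g3_i1 in 3 of 7 for the mean and in 5 of 11 for stamens, there without any 1 of the 5 libraries.

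The course of the fall differed between organs for 37 members by an edgeR test of the change between organs, a single F test over 6 differences, at an adjusted p under 0.05 (5.94% of all features tested). In 33 of the 37 the smallest fitted fall was in carpels, as it was in 125 of all 200 members; the median log2 change of the 37 was -0.97 in carpels and -4.05 averaged over the other 6 organs. The count was 4 without replicate 1 of every floral group, 5 without replicate 2 and 91 without replicate 3. Shares of all features called without these replicates are not given. The 2 members with the largest F are named, a criterion added after their values were seen.

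DN40433_c0_g2_i2 had the larger F (edgeR adjusted p = 2.208e-06). It held 1575, 1809 and 2132 CPM in carpels at S12 and 2004 and 2158 CPM at S9, and 617, 773 and 792 CPM in stamens at S12 and 1678 and 788 CPM at S9. In lateral sepals it held 9.07, 19.7 and 22.0 CPM at S12 and 3099 and 1090 CPM at S9, a fall of 6.73 on the log2 scale (SE 0.66, edgeR adjusted p = 2.362e-07). In carpels and stamens the S12 libraries thus overlapped or came near the S9 libraries, and the log2 changes of -0.22 in carpels and -0.89 in stamens were not called (edgeR adjusted p = 1 and 0.268). DN43304_c0_g1_i2 (edgeR adjusted p = 8.929e-05) changed by -0.44 ± 0.42 (SE) on the log2 scale in carpels and by -5.78 ± 0.61 (SE) in lateral sepals. It held 87.1, 128 and 151 CPM in carpels at S12 and 160 and 162 CPM at S9, and 3.16, 8.13 and 9.96 CPM in lateral sepals at S12 and 643 and 264 CPM at S9.

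**Figure D4:**
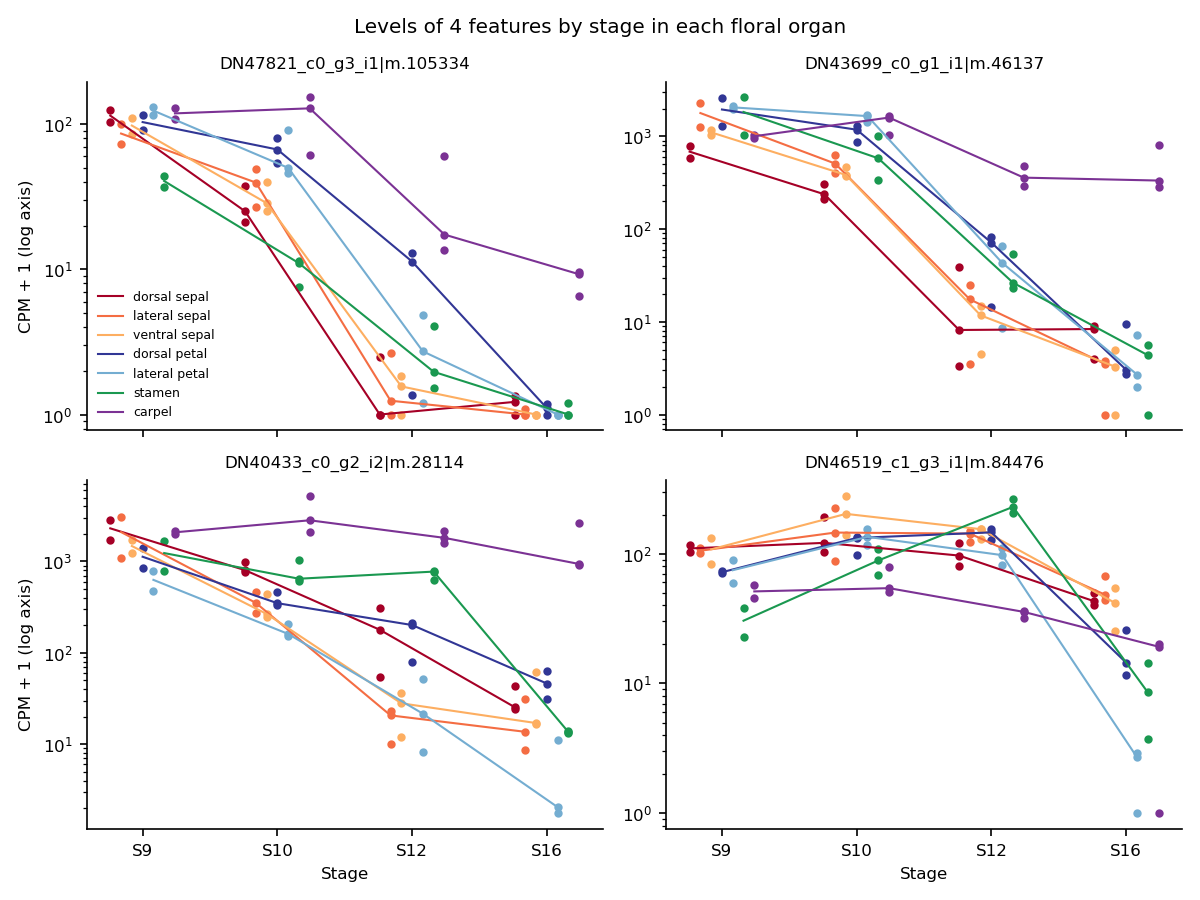
CPM + 1 (log axis) of 4 features by stage in the 7 floral organs. Points are libraries and lines join group medians. DN47821_c0_g3_i1 and DN43699_c0_g1_i1 hold 82.2 CPM or less in every library at S12 outside carpels, DN40433_c0_g2_i2 stays between 1575 and 2132 CPM in the 3 carpel libraries at S12, and DN46519_c1_g3_i1 peaks in stamens at S12.

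The comparison of dorsal spurred with lateral petals, the organs named first in the study design, was made at S9 and S12. At S9, 0 members and 0 of all 21834 features tested were called (0.0%) by edgeR; 2 members and 1153 of all features had an unadjusted p under 0.05, and DESeq2 called 0 members and 96 of all features. The members' median log2 difference was -0.01, equal to that of all features. Leaving out dorsal petal S9 replicate 1 gave 1 member called.

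At S12 most members stood higher in dorsal petals. The fitted log2 difference was above 0 for 168 of 200, with a median of 0.57 against 0.00 over all features tested, and 9 members were called higher in dorsal petals and 1 lower (0.934% and 0.792% of all features tested). The count rested on single libraries: without dorsal petal replicate 1 it was 24 higher, and without any 1 of the other 5 libraries between 1 and 3. Dorsal petal replicate 1 and lateral petal replicate 1 had the lowest member share of their groups, 1.01% and 0.908%, while the other 2 libraries held 1.91% and 1.89% in dorsal petals and 1.29% and 1.29% in lateral petals. Dorsal petal replicate 1 thus lay within the range of the lateral petal libraries, and the groups overlapped in this share. Between libraries of the same number the dorsal share was the higher each time, though numbers were not taken as pairs here. For the counts without single libraries, the shares of all features called are not given. The median difference remained above 0 without each library in turn, between 0.29 and 0.78.

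DN40433_c0_g2_i2 had the largest positive difference, 2.67 ± 0.65 on the log2 scale (SE, edgeR adjusted p = 0.03932), with 78.5, 200.2 and 213 CPM in dorsal petals and 7.30, 50.7 and 20.5 CPM in lateral petals. DN46927_c2_g3_i1 followed at 2.05 ± 0.52 (SE, edgeR adjusted p = 0.04786), with 266, 458 and 592 CPM in dorsal petals and 54.2, 124 and 141 CPM in lateral petals. DN47590_c0_g1_i1 was the single member lower in dorsal petals, by 1.61 ± 0.33 (SE, edgeR adjusted p = 0.01144), with 29.7, 74.6 and 59.6 CPM in dorsal petals and 119, 182 and 201 CPM in lateral petals. The dorsal and lateral libraries did not overlap in any of these 3 members. The call was lost in 6 of 13 alternative settings for DN40433_c0_g2_i2, in 7 of 13 for DN46927_c2_g3_i1 and in 4 of 13 for DN47590_c0_g1_i1.

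In sepals at S12 the dorsal spurred type was compared with the mean of the lateral and ventral types, and 2 members were higher in dorsal sepals (0.471% of all features tested) and 0 lower (0.0277%). DN40433_c0_g2_i2 was higher by 3.16 ± 0.43 on the log2 scale (SE, edgeR adjusted p = 5.818e-05), with 52.7, 178 and 311 CPM in dorsal sepals, 9.07, 19.7 and 22.0 CPM in lateral sepals and 10.9, 27.0 and 35.7 CPM in ventral sepals. DN44151_c3_g2_i3 was higher by 2.38 ± 0.43 (SE, edgeR adjusted p = 0.002662), with 138, 259 and 359 CPM in dorsal sepals, 17.9, 62.6 and 57.7 CPM in lateral sepals and 24.3, 67.8 and 67.0 CPM in ventral sepals. In both, every dorsal library lay above every lateral and ventral one. For DN40433_c0_g2_i2 the sepal call held in 16 of 16 alternative settings, unlike its petal call. Replicate numbers pair these sepal libraries, a pairing that the counts above leave out. With the replicate block 6 members were higher, and the share of all features called with it is not given. The members' median difference was 0.14 with all libraries and -0.47 without dorsal sepal S12 replicate 3, which had 18153 features detected and the highest member share of its group, 1.37%, so no direction is given for the set.

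Leaves and bracts held the members at levels between those of early and late floral stages, except beside carpels and, for leaves, stamens at S10. The summed level of the 200 lay between 13676 and 20447 CPM in the 4 leaf libraries and between 5968 and 11930 CPM in the 4 bract libraries, and the groups did not overlap. In carpels it was still between 21922 and 34279 CPM at S16, above every leaf and bract library. Stamens at S10 held between 14216 and 25566 CPM, overlapping the leaf libraries. The mean of leaf and bract levels was a median of 0.371 times a member's median S10 value (range 0.0509 to 1.82), at or above it in 7 members and below the median S16 value in 11. Leaf and bract levels entered the choice among the 9 organ values, a condition that sets no direction between leaves and bracts. In the test of leaves against bracts, 95 of 199 members tested were higher in leaves and 9 lower (18.5% and 19.4% of all features tested), with a median log2 difference of 0.74 against -0.03 over all features tested. Fitting all wild-type libraries together gave 37 higher in leaves. The share of all features called in that fit is not given, so the 37 do not show whether members differed more than other features.

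DN46946_c3_g5_i2 had the largest difference, 2.37 ± 0.51 on the log2 scale (SE, edgeR adjusted p = 0.007037), with 270, 257, 446 and 336 CPM in leaves and 105, 55.9, 104 and 14.8 CPM in bracts. DN47956_c0_g1_i16 followed at 2.30 ± 0.58 (SE, edgeR adjusted p = 0.01446), with 34.3, 62.0, 147 and 89.6 CPM in leaves and 11.7, 23.1, 36.3 and 4.96 CPM in bracts; its lowest leaf library lay under its highest bract library. In the other direction, DN43150_c3_g2_i1 held 30.9, 29.2, 29.4 and 17.3 CPM in leaves and 107, 110, 95.3 and 125 CPM in bracts, which is -1.92 ± 0.22 on the log2 scale (SE, adjusted p by edgeR 0.0005024). DN46893_c0_g2_i5 held 20.2, 21.8, 17.5 and 43.4 CPM in leaves and 66.8, 78.3, 44.7 and 59.4 CPM in bracts, which is -1.17 ± 0.30 on the log2 scale (SE, adjusted p by edgeR 0.01353).

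DN44644_c3_g1_i1 had the highest leaf and bract level for its S10 value, 1.82 times it, with 57.6, 51.2, 73.9 and 73.1 CPM in leaves, 52.5, 63.5, 45.5 and 27.1 CPM in bracts and an organ-wide floral median of 31.0 CPM at S10. DN45465_c0_g2_i5 came next at 1.53 times. DN47104_c1_g1_i2 had the lowest, 0.0509 times, with 35.2, 52.1, 73.1 and 40.8 CPM in leaves, 30.2, 85.1, 86.7 and 26.7 CPM in bracts and an organ-wide median of 1041 CPM at S10. DN48170_c0_g5_i1 was second lowest at 0.0594 times. Even so, leaves and bracts lay above the organ-wide S16 medians of these features, 0.759 CPM for the first and 0.775 CPM for the second. Carpels were the highest organ at S16, with medians of 214 CPM for the first and 11.3 CPM for the second. For DN47104_c1_g1_i2 the carpel median lay above every leaf and bract library.

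**Figure D5:**
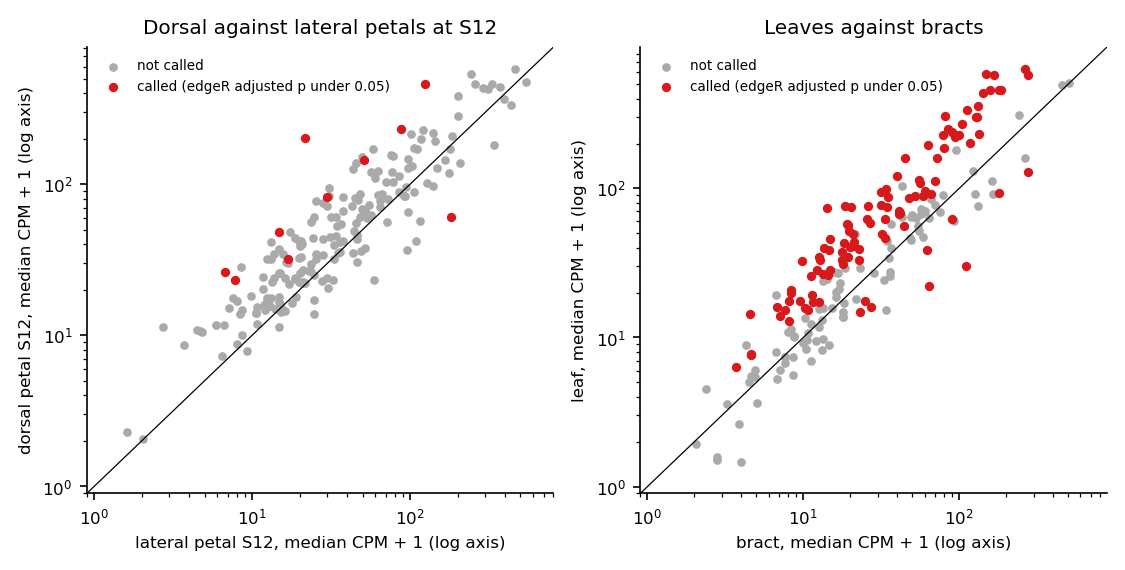
Group medians (CPM + 1, log axes) of the 200 features in dorsal against lateral petals at S12 (left) and in leaves against bracts (right). Each point is 1 feature, the line marks equal levels, and red points were called by edgeR: 10 at left and 104 at right. Most points lie above the line in both.

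In the silencing libraries, the summed level of the 200 was 3437 and 5308 CPM in ans-lmi1 and 4823 and 5175 CPM in ans, so the groups overlapped. Of 196 members tested, 0 were called by edgeR, as were 0 of all 18757 features tested (0.0%), while 13 members and 1382 of all features had an unadjusted p under 0.05 and DESeq2 called 1 member and 122 of all features. The members' median log2 difference was -0.12, against 0.01 over all features tested. Without ans-lmi1 replicate 2, whose genotype label differs, edgeR called 1 member and 83 of all features; that fit has a single ans-lmi1 library, assumed to vary like the 2 ans libraries.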

How the data were processed

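RNA-seq was deposited for 89 libraries as 1 value per feature. The values are estimated counts made by the authors and deposited without normalization; per the submitters' processing notes TopHat2 and RSEM were used, while reference, annotation and each tool's role were not given in the sources used here. Between 93.2% and 99.2% of the values in a library were whole, and the rest were rounded for the tests. RNA came from a TIANGEN plant kit and libraries from a Fast RNA-seq kit, per the labels' protocols. No 2 libraries of a group agreed within sampling noise.

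CPM was a count over the column sum. Tests used edgeR 4.0.16 in R 4.3.3 (limma 3.58.1): TMM factors, filterByExpr, trended dispersion and robust quasi-likelihood F tests, with p-values adjusted over all features tested. Fits held all stages of an organ family (77 floral libraries for the mean over organs and the change between organs, 33 for sepals, 22 for petals, 11 each for stamens and carpels), 8 leaf and bract libraries or 4 silencing libraries. Standard errors were the log2 change over the root of F. Fits were tried on simulated data only for S12 against S9 in lateral petals and carpels, leaves against bracts, and ans-lmi1 against ans. Python 3.11.15, pandas 2.3.3 and numpy 2.4.6 made the tables.

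The members and lists were chosen with earlier results of these data known. Named members were those at either end of the minimum ratio, highest in S10 level, earliest and latest in fall, highest and lowest in leaf and bract level, and, per comparison, up to 2 called in each direction with the largest change. Alternatives were DESeq2 1.42.0 with its size factors, no filter, replicate blocks, other sets of libraries, other rules for membership and, added after seeing the data, the bias-adjusted fit of edgeR and other scalings of the fall from S10 to S16. Deviations from group means of same-numbered libraries correlated at 0.496 to 0.577 in the S12 sepals and at 0.11 to 0.488 in leaves and bracts, so numbers were taken to pair these. The main fits held no term for replicate number, so their standard errors and p-values leave this pairing out. In the mean over organs and the change between organs, same-numbered S12 sepal libraries were thus treated as independent. Floors cover counting error only.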

Additional observations from a re-analysis of the deposited data

Results flagged for a closer look

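Of 62 groups of 4 leaf or bract libraries looked at for the named features, 5 had a library far from the other 3, where chance gives about 1 in 20. All 5 were in leaves: DN40433_c0_g2_i2 held 538.5 CPM in replicate 4 and between 53.1 and 106 CPM in the others, DN45018_c0_g3_i1 held 30.21 CPM in replicate 3 and between 11.3 and 13.3 CPM in the others, and DN45709_c0_g2_i11 held 2.589 CPM in replicate 1 and between 1.51 and 1.67 CPM in the others. Replicate 4 also held the lowest value of DN43150_c3_g2_i1, 17.3 CPM, against 29.2 to 30.9 CPM, and the highest of DN46893_c0_g2_i5, 43.38 CPM, against 17.5 to 21.8 CPM. DN43150_c3_g2_i1, DN46893_c0_g2_i5 and DN45018_c0_g3_i1 were called in the edgeR test of leaves against bracts (adjusted p = 0.0005024, 0.01353 and 0.04684).

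The change from S9 to S12 differed between organs for 37 members by the edgeR test of that difference (5.94% of all features tested). Of the 37, 33 had the smallest fitted fall in carpels, as did 125 of all 200 members. The count of 37 depended strongly on which replicates were left out, as given above.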

How the results depend on the processing

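The count of members lower at S12 in the mean over organs, 174, lay between 138 and 184 in the other settings. No change of setting turned the direction of a named feature: of 327 alternatives for them, 278 kept the call and 49 lost it. Counts moved by over 1.5 times in these cases, and the cause was not tested. Shares of all features called in each setting are not given beside them. They thus do not show whether members moved more than other features. In lateral sepals, fitting only the compared groups gave 0 lower (125 members had an unadjusted p under 0.05; edgeR). In stamens, the bias-adjusted fit gave 97, DESeq2 111, the compared groups alone 108, all wild-type libraries 113, and leaving out 1 library 26 to 48. In carpels these gave 28, 47, 74, 1 and 0 to 5, the replicate block gave 23, and leaving out libraries under 19000 features gave 95. The change between organs gave 89 with the bias-adjusted fit, 67 with DESeq2, and 4, 5 and 91 without replicates 1, 2 and 3. Dorsal against lateral petals at S9 gave 0 to 1 without single libraries. At S12 members higher numbered 27 with the bias-adjusted fit, 52 with the replicate block, 28 without libraries under 19000 features, 25 with DESeq2, 1 with all wild-type libraries and 1 to 24 without single libraries. Dorsal sepals at S12 gave 6 with the replicate block and 5 with the compared groups alone, leaves against bracts gave 37 with all wild-type libraries, and ans-lmi1 against ans gave 1 with DESeq2 and 0 to 1 without single libraries. Features meeting the membership rule, 377, numbered 823 at 1.5 times, 133 at 3 times and 197 with breadth under 2 times. Of the 200, 158 were also taken with TMM scaling, 146 with replicate means and 89 without libraries under 19000 features. Without replicate 1 of every floral group 109 of them were taken, without replicate 2 125, and without replicate 3 142. With breadth under 2 times 90 were taken.

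Same-numbered S12 and S9 libraries correlated at -0.169 to 0.149, S12 petals at 0.038 to 0.308, and S9 petals and silencing libraries at 0.093 and 0.085, so the numbers were not taken as pairs; the replicate block, which gave 23 in carpels and 52 in S12 petals, moved no other of these counts by over 1.5 times. In leaves against bracts, where the numbers were taken as pairs, the block gave 106 members higher and 10 lower. Leaving out libraries under 19000 features could not be done in sepals and stamens at S9, nor for the mean over organs and the change between organs.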
